A study of Mus musculus with 12 samples.

Results

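The genes described here are 10 regulators grouped as preadipocyte and anti-adipogenic genes: Dlk1, Gata2, Gata3, Gata6, Klf2, Klf3, Sox9, Nr2f2, Hes1 and Zfp521. They were taken by name from the tables of counts and FPKM (fragments scaled by gene length and library total), and all 10 were found among 39423 listed genes. The cells were 3T3-L1, a line of mouse preadipocytes that differentiates into fat cells when confluent cultures receive DMI, a cocktail of dexamethasone, 3-isobutyl-1-methylxanthine and insulin. They had been transfected with a control siRNA (siCtrl, named NC in the labels) or with an siRNA against the arginine methyltransferase PRMT1 (siPRMT1), and mRNA was sequenced after DMI for 24 h or 72 h. Each of the 4 groups held 3 libraries, 12 in all, and every group had received DMI, so no undifferentiated culture is among them. The sources do not name which PRMT1 siRNA was used for sequencing, and loss of PRMT1 cannot be told apart from effects of the siRNA on other transcripts.

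Fat cell differentiation runs through a cascade in which C/EBPβ and C/EBPδ switch on PPARγ and C/EBPα, the pair of factors that drives the adipocyte program. Several of the regulators described here act against that cascade, at different steps. DLK1 (preadipocyte factor 1) is an EGF-repeat membrane protein whose shed ectodomain inhibits adipogenesis, and HES1 is a transcriptional repressor downstream of Notch. GATA2 and GATA3 restrain PPARγ and C/EBP factors, KLF2 represses the Pparg promoter, KLF3 represses Cebpa with the corepressor CtBP, SOX9 represses Cebpb and Cebpd, NR2F2 (COUP-TFII) is an orphan nuclear receptor, and ZFP521 is a zinc finger protein that binds EBF1 and limits its activity.

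The libraries held 15116462 to 42357137 counts. Prmt1 lay between 82.9 and 91.3 FPKM in siCtrl and between 38.6 and 43.8 FPKM in siPRMT1 libraries at 24 h, a log2 fold change of -1.11 (SE 0.0758, adjusted p = 9.8e-04, edgeR's quasi-likelihood test). At 72 h it averaged 124 ± 15.1 FPKM (SD, n = 3) in siCtrl and 67.4 ± 4.91 FPKM in siPRMT1, a log2 fold change of -0.88 (adjusted p = 1.2e-05). All 8 fibroblast markers averaged above 1 FPKM in every group, and the summed level of the 8 adipocyte markers went from 157 to 164 FPKM in siCtrl at 24 h to between 2803 and 3016 FPKM at 72 h. The endothelial list summed to 0.12 to 0.98 FPKM over all libraries. The macrophage list summed to 3.91 to 6.23 FPKM, with Cd68 and Cd14 the 2 of its 6 markers above 1 FPKM in every group, Ptprc listed at 0 in all 12 libraries and Adgre1 in 11. The skeletal muscle list went from 0.09 to 0.15 FPKM in siCtrl at 24 h to 4.0 to 6.8 FPKM at 72 h, and from 0.08 to 0.13 FPKM to 5.03 to 5.94 FPKM in siPRMT1, with Acta1 its 1 marker above 1 FPKM and Myod1, Myf5 and Pax7 listed at 0 in all 12 libraries. The epithelial list, carried by the keratin gene Krt19, went from 4.21 to 6.03 FPKM in siCtrl at 24 h to 34.3 to 39.9 FPKM at 72 h, when Krt14 was also above 1 FPKM. The part of these lists in the members' changes over time was not tested. Replicates differed by more than counting error, and siCtrl replicate 3 at 24 h stood farthest from its group, with a chi-square per gene of 30.8 and 50.6 against the other libraries of its group, compared with 4.14 to 15.8 for all other pairs. The study's general statement on statistics speaks of independent experiments, but the labels do not say whether these libraries came from separate cultures, and if they did not, the p-values measure only the spread between them.

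The 10 regulators were expressed over a wide range. In siCtrl cells at 24 h, Dlk1 had the highest mean level at 45.8 ± 8.14 FPKM, followed by Sox9 at 25.1 ± 1.32 FPKM, Hes1 at 21.5 ± 2.74 FPKM, Klf3 at 17.8 ± 1.71 FPKM and Nr2f2 at 15.1 ± 1.02 FPKM. Sox9 and Hes1 overlapped in this order, as did Klf3 and Nr2f2, whereas the other neighbours did not. Zfp521, Gata6, Gata2, Klf2 and Gata3 followed with 9.91, 6.01, 2.80, 1.88 and 0.35 FPKM. By 72 h the order in siCtrl had shifted. Dlk1 still led at 21.5 ± 1.88 FPKM, Hes1 was next at 17.2 FPKM and overlapped Sox9 at 14.9 FPKM, Gata6 had passed Klf3 and Nr2f2 at 11.4 to 12.8 FPKM, and Zfp521 had moved below Klf2, to 3.88 ± 0.20 FPKM. Gata3 was the lowest member in all 4 groups and rested on 19 to 70 counts per library, the fewest of any member. The FPKM of each library are drawn in the panels by gene.

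**Figure D1:**
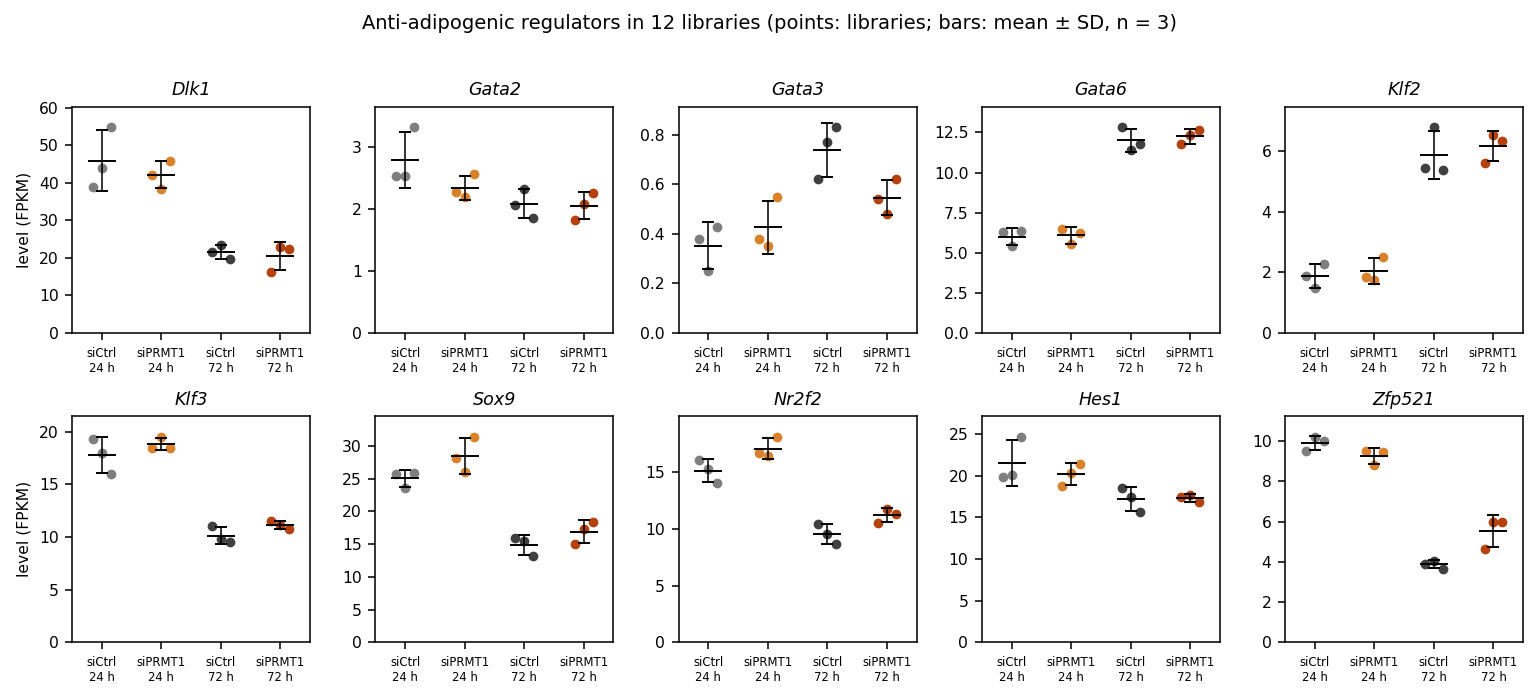
Level of each regulator in FPKM (y axis, from 0, scaled per gene) in the 4 groups (x axis), with 1 point per library and bars for the mean ± SD of 3 libraries. Dlk1, Klf3, Sox9, Nr2f2 and Zfp521 are lower and Gata6 and Klf2 higher at 72 h with either siRNA, and Zfp521 has the largest relative difference by siRNA at 72 h (3.66 to 4.05 against 4.63 to 6.01 FPKM).

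The first comparison asked how these genes moved between 24 h and 72 h of differentiation in control cells. Of the 10 members, 5 fell and 3 rose. Zfp521, Dlk1, Klf3, Sox9 and Nr2f2 fell, by 1.43, 1.16, 0.88, 0.83 and 0.73 on the log2 scale, and Klf2, Gata3 and Gata6 rose, by 1.57, 0.98 and 0.93. Calls required an adjusted p below 0.05 together with a log2 change larger than 0.5 in size. Over all 13829 genes tested, 22.7% were called higher and 20.4% lower. The groups did not overlap for 10 of 10 members, against 64.4% of all genes (CPM, counts scaled by library size with TMM factors). Without siCtrl replicate 3 at 24 h, again 5 fell and 3 rose. Dlk1, Gata2 and Hes1, which were highest of their group in that library, then stood at -1.02, -0.37 and -0.29. Sox9, Gata6, Klf2 and Gata3 were also highest of their group there, and Gata3 stood at 1.08 without that library. The median log2 change was -0.62 over the members and -0.004 over all genes. In siPRMT1 cells 5 members fell and 2 rose over the same interval, while 19.0% of all genes were called higher and 17.4% lower. Here 8 of 10 members did not overlap, against 66.7% of all genes, and the members' median was -0.43. In cultures that mix cells at several stages, fewer cells of a type and less RNA per cell cannot be told apart.

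**Figure D2:**
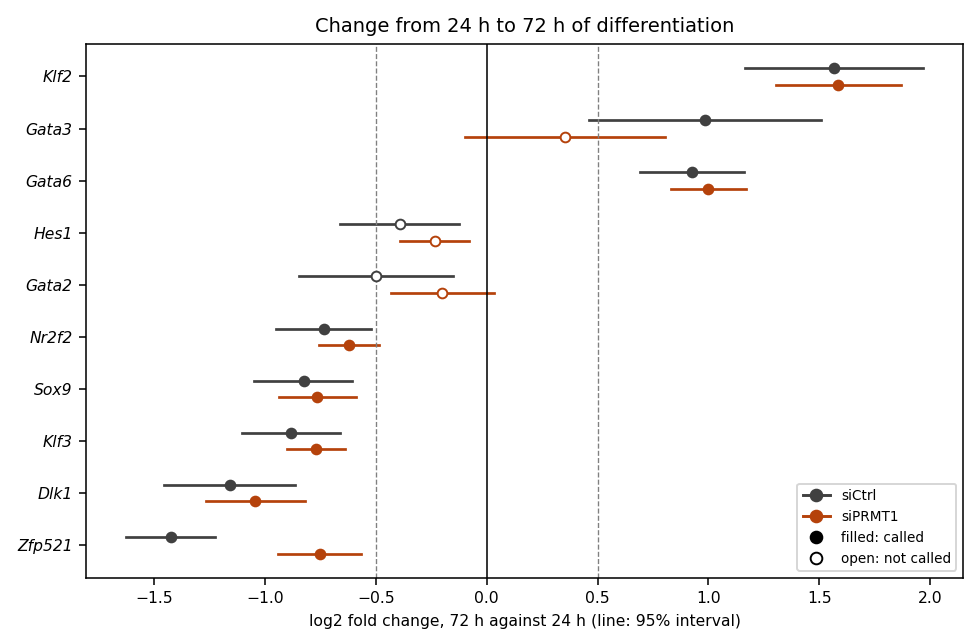
Log2 fold change from 24 h to 72 h (x axis) of each regulator (y axis) in siCtrl and siPRMT1 cells, with lines for the 95% interval, filled points for called genes and dashed lines at the fold threshold. Klf2 and Gata6 are called higher and Zfp521, Dlk1, Klf3, Sox9 and Nr2f2 lower with either siRNA, and Zfp521 is the only member whose intervals do not overlap between siCtrl (-1.63 to -1.22) and siPRMT1 (-0.94 to -0.57).

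Positions are those of the count table, on GRCm38. Among the signalling genes, Dlk1 (chr12:109452823-109463336) stood at 38.8, 44.0 and 54.7 FPKM in the siCtrl libraries at 24 h and at 21.5, 23.4 and 19.7 FPKM at 72 h. With siPRMT1 it was 42.2, 38.5 and 45.7 FPKM at 24 h and 16.3, 23.0 and 22.4 FPKM at 72 h. All 24 h libraries were thus above all 72 h libraries, whereas the siRNA groups overlapped on both days. The fall was 0.45-fold in siCtrl (95% interval 0.37 to 0.55, adjusted p = 3.9e-05, edgeR) and 0.49-fold in siPRMT1 (0.42 to 0.57, adjusted p = 9.2e-07). The table lists Dlk1 a second time, as Dlk1_1, on an alternate scaffold of the assembly, and this copy held 26.6% to 35.9% of the summed counts per library. Its log2 change over time was -1.22 in siCtrl and -0.79 in siPRMT1, so the copies gave different values for siPRMT1.

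Hes1 (chr16:30065357-30067796), the Notch target, moved less. It was 19.8, 20.1 and 24.7 FPKM in siCtrl at 24 h and 18.5, 17.4 and 15.7 FPKM at 72 h, and in siPRMT1 18.8, 20.4 and 21.4 FPKM at 24 h and 17.4, 17.7 and 16.9 FPKM at 72 h. The days did not overlap with either siRNA. The log2 change was -0.39 (SE 0.120, adjusted p = 0.0169) in siCtrl and -0.23 (SE 0.0721, adjusted p = 0.0117) in siPRMT1, under the fold threshold in both. Of the 30 listed Notch pathway genes 21 were tested. Over time in siCtrl, 3 of them rose and 4 fell, led by Lfng, a glycosyltransferase that modifies Notch receptors (2.89), Psen2, a presenilin of the γ-secretase complex (1.49), and the receptor Notch3 (-1.86). In siPRMT1 2 rose and 5 fell, with the same leading genes at 2.66, 1.34 and -1.79. Among all genes tested, 22.7% were called higher and 20.4% lower in siCtrl, and 19.0% and 17.4% in siPRMT1.

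The GATA factors went different ways. Gata6 (chr18:11052510-11085636), best known for its roles in endoderm and heart, was 6.28, 5.42 and 6.34 FPKM in siCtrl at 24 h and 12.8, 11.4 and 11.8 FPKM at 72 h, a 1.90-fold rise (95% interval 1.61 to 2.23, adjusted p = 3.9e-05, edgeR). In siPRMT1 it was 6.50, 5.52 and 6.23 FPKM at 24 h and 11.8, 12.3 and 12.6 FPKM at 72 h, a 2.0-fold rise (1.78 to 2.25). The days were far apart and the siRNA groups overlapped on each. Gata3 (chr2:9857078-9878612) was 0.38, 0.25 and 0.43 FPKM in siCtrl at 24 h and 0.62, 0.77 and 0.83 FPKM at 72 h, a 1.98-fold rise (1.38 to 2.84, adjusted p = 0.0047). In siPRMT1 cells it was 0.38, 0.35 and 0.55 FPKM at 24 h and 0.54, 0.48 and 0.62 FPKM at 72 h, and these days overlapped. There the log2 change of Gata3 was 0.35 (SE 0.209, adjusted p = 0.158), but it was 0.56 and called without siPRMT1 replicate 3 at 24 h (adjusted p = 0.0395). The difference between the siRNAs in this change was itself not called (interaction -0.62, SE 0.320, adjusted p = 0.228).

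Gata2 (chr6:88193437-88207032) lay in the other direction from its relatives. Its libraries were at 2.54, 2.54 and 3.32 FPKM in siCtrl at 24 h and at 2.07, 2.33 and 1.86 FPKM at 72 h, with no overlap. The log2 change was -0.498 (SE 0.156, adjusted p = 0.0190), just under the fold threshold, and it was called without siCtrl replicate 1 or 2 of either day (-0.53 to -0.64). In siPRMT1 Gata2 was 2.27, 2.20 and 2.57 FPKM at 24 h and 1.83, 2.08 and 2.26 FPKM at 72 h, and the days overlapped (-0.20, SE 0.108, adjusted p = 0.122). Of 11 listed GATA factors and cofactors 8 were tested. Zfpm2 and Zfpm1, the FOG cofactors that bind GATA factors, fell in siCtrl by 1.05 and 0.73 and were the called genes of the list. In siPRMT1 the called gene was the LIM-only factor Lmo4 (-0.60). Among all genes tested, 20.4% were called lower in siCtrl and 17.4% in siPRMT1.

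Both Krüppel-like factors were called over time, in opposite directions. Klf2 (chr8:72319062-72321654) was 1.87, 1.49 and 2.28 FPKM in siCtrl at 24 h and 5.45, 6.78 and 5.39 FPKM at 72 h, a 2.96-fold rise (95% interval 2.24 to 3.91, adjusted p = 4.3e-05, edgeR). In siPRMT1 it went from 1.86, 1.74 and 2.52 FPKM to 5.62, 6.54 and 6.34 FPKM, a 3.00-fold rise (2.47 to 3.65). This was the largest rise of any member with either siRNA, in a gene known as an inhibitor of adipogenesis. Klf3 (chr5:64803523-64832903) was 19.4, 18.0 and 16.0 FPKM in siCtrl at 24 h and 11.03, 9.84 and 9.52 FPKM at 72 h, a 0.54-fold fall (0.47 to 0.63, adjusted p = 3.8e-05). The siPRMT1 libraries held 18.5, 19.5 and 18.5 FPKM at 24 h and 11.5, 11.2 and 10.8 FPKM at 72 h, a 0.59-fold fall (0.54 to 0.64). For both genes the days were clearly apart and the siRNA groups overlapped. Among 14 tested genes of the other KLF factors and CtBP, 3 rose and 5 fell in siCtrl, beside 22.7% higher and 20.4% lower over all genes. They ran from Klf15, a factor of mature adipocytes (5.68), to Klf5, which acts early in adipogenesis (-1.03), and Klf10 (-0.95).

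Sox9 (chr11:112782210-112787757), best known as the factor that drives cartilage formation, was 25.8, 23.5 and 25.9 FPKM in siCtrl at 24 h and 16.0, 15.4 and 13.2 FPKM at 72 h. The fall was 0.56-fold (95% interval 0.48 to 0.66, adjusted p = 5.7e-05, edgeR). In siPRMT1 it went from 28.1, 26.0 and 31.4 FPKM to 15.1, 17.3 and 18.4 FPKM, a 0.59-fold fall (0.52 to 0.66). Nr2f2 (chr7:70351946-70366746) was 16.1, 15.3 and 14.1 FPKM in siCtrl at 24 h and 10.4, 9.54 and 8.70 FPKM at 72 h. It fell 0.60-fold (0.52 to 0.70, adjusted p = 1.1e-04). With siPRMT1 Nr2f2 went from 16.7, 16.4 and 18.1 FPKM to 10.6, 11.8 and 11.3 FPKM, a 0.65-fold fall (0.59 to 0.71). For Sox9 the siPRMT1 libraries overlapped those of siCtrl at 72 h, whereas for Nr2f2 the lowest siPRMT1 library was above the highest siCtrl library. Only 4 of 14 other SOX factors passed the filter on low counts. In siCtrl 1 of these fell, Sox4, a factor of progenitor cells (-1.02), and in siPRMT1 3 fell, Sox4 (-1.24), Sox11 (-1.29) and Sox5 (-0.65), the latter pair from levels below 1 FPKM. Of 10 tested NR2F relatives and corepressors, the receptor Nr2f6 rose (0.55) and the zinc finger repressor Bcl11b fell (-0.67) in siCtrl, and 1 rose and 1 fell in siPRMT1. The shares over all genes were 22.7% higher and 20.4% lower in siCtrl, and 19.0% and 17.4% in siPRMT1.

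Across the 12 libraries the regulators split into blocks with opposite patterns. The 21 pairs among the 7 members with a lower mean at 72 h had a Pearson r of log2 CPM between 0.61 and 0.98, with Sox9 and Nr2f2 (0.980), Klf3 and Nr2f2 (0.973) and Nr2f2 and Zfp521 (0.955) the most alike. Gata6 and Klf2 rose together (0.97). The 21 pairs between the blocks ran from -0.97 to -0.41. The 12 points share the day of sampling and the siRNA within groups, so they are not independent. The blocks were drawn by the change over time in these same libraries, so the signs of r largely follow from that sorting. Within the falling block the lowest r were those of Gata2 with Klf3 and with Nr2f2 (0.61 each). Gata2 was closer to Hes1 (0.895) and Dlk1 (0.854).

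**Figure D3:**
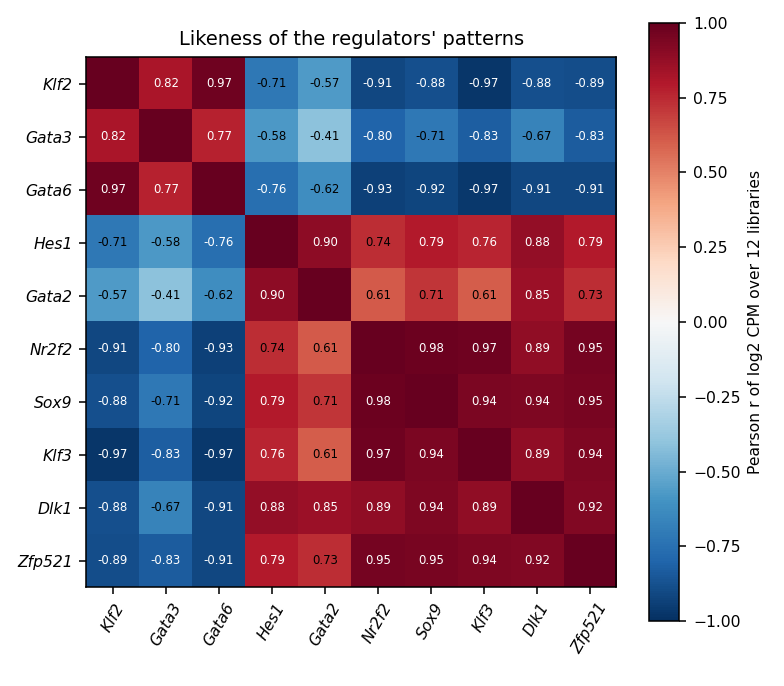
Pearson r of log2 CPM over 12 libraries for each pair of regulators (rows and columns, ordered by their change over time in siCtrl), from -1 in blue to 1 in red. Klf2, Gata3 and Gata6 form a block with r of 0.77 to 0.97, the 7 members lower at 72 h form another with r of 0.61 to 0.98, and all pairs between them are negative.

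Dlk1, Klf3 and Nr2f2, which fell together, and Klf2, which rose, had a promoter entry in RefSeq (GRCm38.p6), and their 250 bases before the start site are shown to set side by side windows of genes that moved alike and apart. Capitals mark matches on either strand to GATA-factor words (GATA with A or T before it and A or G after it) and to CACCC, the core that KLF factors bind. Gata2 and Gata3 also had an entry, whereas none was found for Sox9 and Hes1. Gata6 and Zfp521 were left out of the lookup, so whether they have an entry was not tested. The windows lie at chr12:109452573-109452822 on the plus strand (Dlk1), chr5:64803271-64803520 on the plus strand (Klf3), chr7:70366747-70366996 on the minus strand (Nr2f2) and chr8:72318812-72319061 on the plus strand (Klf2), each written 5′ to 3′ along its gene.
Dlk1: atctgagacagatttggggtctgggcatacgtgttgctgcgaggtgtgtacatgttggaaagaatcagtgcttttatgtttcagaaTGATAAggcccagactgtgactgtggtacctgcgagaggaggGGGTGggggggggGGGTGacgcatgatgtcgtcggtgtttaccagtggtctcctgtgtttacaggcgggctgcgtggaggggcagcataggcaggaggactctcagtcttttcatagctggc
Klf3: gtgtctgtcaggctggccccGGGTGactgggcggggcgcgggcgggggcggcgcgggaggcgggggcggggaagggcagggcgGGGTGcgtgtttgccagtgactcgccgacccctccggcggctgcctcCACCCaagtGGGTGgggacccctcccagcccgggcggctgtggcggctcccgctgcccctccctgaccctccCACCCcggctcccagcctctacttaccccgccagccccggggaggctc
Nr2f2: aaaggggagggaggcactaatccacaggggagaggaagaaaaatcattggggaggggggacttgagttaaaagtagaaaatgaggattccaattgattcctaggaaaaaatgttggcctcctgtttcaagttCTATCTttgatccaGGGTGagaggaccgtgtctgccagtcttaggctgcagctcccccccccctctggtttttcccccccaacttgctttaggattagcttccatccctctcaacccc
Klf2: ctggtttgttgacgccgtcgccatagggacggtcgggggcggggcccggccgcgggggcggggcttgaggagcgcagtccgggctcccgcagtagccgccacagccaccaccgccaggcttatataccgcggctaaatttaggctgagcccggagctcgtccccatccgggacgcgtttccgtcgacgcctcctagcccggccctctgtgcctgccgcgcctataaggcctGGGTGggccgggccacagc
The Dlk1 window held a GATA word that begins at position -164, counted from the start site, and CACCC cores that begin at -122 and -109. In the Nr2f2 window a GATA word began at -118 and a CACCC core at -104. Klf3, itself a CACCC-binding factor, held 5 CACCC cores, and Klf2 held 1, which began at -19. The windows of Klf3 and Klf2 held no GATA word, nor did those of Gata2 and Gata3, which are not shown. A CACCC core began at -235 in 1 of the Gata2 windows. Gata3, which rose in siCtrl, held 3 CACCC cores, at -160, -156 and -136. Over the 32851 promoter windows of the same length that were kept for the lookup, 26.5% held a GATA word and 52.0% held a CACCC core. The letters TGGGAA, the core bound by the Notch effector RBPJ, was in 21.6% of windows and in none of the windows of the 6 members. These matches describe letters and not binding.

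The second comparison asked what PRMT1 knockdown did to these genes at 24 h. None of the 10 members was called (edgeR), 0 passed at an unadjusted p under 0.05, and DESeq2 also called 0, while 1.95% of 13689 genes were called higher and 1.61% lower. The members' log2 fold changes ran from -0.30 (Gata2) to 0.20 (Gata3), with a median of -0.002 beside 0.010 over all genes. The 95% intervals were narrowest for Zfp521 (-0.30 to 0.01), Nr2f2 (-0.06 to 0.30) and Sox9 (-0.06 to 0.33), and widest for Gata3 (-0.40 to 0.79) and Klf2 (-0.39 to 0.52). Those of Klf2, Gata2 and Gata3 thus hold changes beyond the fold threshold. Gata2 and Zfp521 did not overlap between the siRNA groups in CPM, both lower with siPRMT1, and 31.3% of all genes were without overlap. In FPKM, which divides by total counts, these 2 overlapped, whereas Sox9 and Nr2f2 were without overlap and higher with siPRMT1. Each fit that left out 1 library, siCtrl replicate 3 included, also called 0 members.

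At 72 h a single regulator was called with PRMT1 knockdown. It was Zfp521, which was higher, and Nr2f2 and Gata3 passed only an unadjusted p under 0.05. Over 14039 genes, 2.84% were called higher and 3.80% lower. The members' median was 0.05 beside 0.01 over all genes. Gata3, Nr2f2 and Zfp521 did not overlap between the siRNA groups in CPM, and 34.9% of all genes did not. For Gata3 the nearest libraries were all but level, at 2.149 CPM (siCtrl replicate 1) and 2.147 CPM (siPRMT1 replicate 3). In FPKM both stood at 0.62 and the Gata3 groups overlapped, whereas those of Nr2f2 and Zfp521 did not. Nr2f2 was 0.23 higher on the log2 scale (95% interval 0.05 to 0.40, adjusted p = 0.0678, edgeR), and Gata3 was lower, at -0.45 (-0.84 to -0.05, adjusted p = 0.111). Sox9 stood at 0.18, Klf3 at 0.13, Klf2 at 0.08, Gata6 at 0.02, Hes1 at 0.01, Gata2 at -0.01 and Dlk1 at -0.07. The intervals of Gata6 (-0.14 to 0.19), Hes1 (-0.17 to 0.19), Dlk1 (-0.30 to 0.16), Klf2 (-0.17 to 0.33), Gata2 (-0.28 to 0.26), Klf3 (-0.03 to 0.30) and Sox9 (-0.01 to 0.38) all stayed within the fold threshold. For Dlk1 the alternate-scaffold copy stood at 0.28 (SE 0.104, adjusted p = 0.0822), and with both rows summed the gene stood at 0.04, with the opposite sign and again not called.

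**Figure D4:**
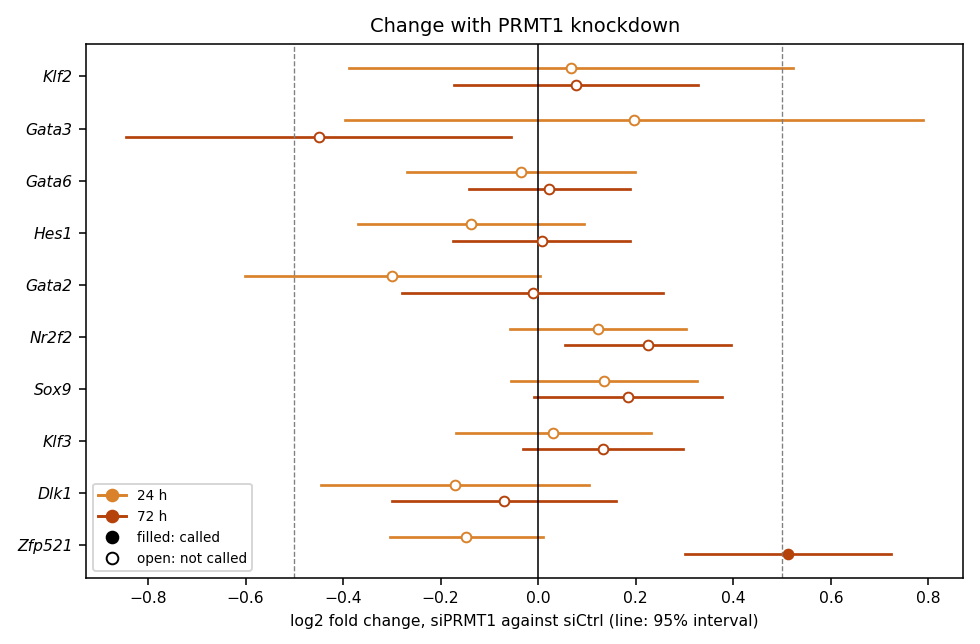
Log2 fold change of siPRMT1 against siCtrl (x axis) for each regulator (y axis) at 24 h and at 72 h, with lines for the 95% interval, filled points for called genes and dashed lines at the fold threshold. Zfp521 at 72 h (0.51) is the only filled point, and at 24 h its value lies on the other side of 0 (-0.15).

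Zfp521 (chr18:13687013-13972787) was 9.51, 10.2 and 10.01 FPKM in siCtrl at 24 h and 3.92, 4.05 and 3.66 FPKM at 72 h. In siPRMT1 it was 9.51, 8.83 and 9.45 FPKM at 24 h and 4.63, 5.99 and 6.01 FPKM at 72 h. At 72 h every siPRMT1 library was above every siCtrl library, with siPRMT1 replicate 1 closest to the controls, whereas at 24 h the siCtrl libraries were level with or above those of siPRMT1. The difference at 72 h was 1.43-fold (95% interval 1.23 to 1.65, log2 0.51, SE 0.0991, adjusted p = 0.0025, edgeR). The call sits at the fold threshold. It was lost, at adjusted p of 0.0108 to 0.0195, without siCtrl replicate 3 (0.47), siPRMT1 replicate 2 (0.46) or siPRMT1 replicate 3 (0.44), and it was 0.62 without siPRMT1 replicate 1. On FPKM with limma the value was 0.42 to 0.50, and without a filter on low values its adjusted p was 0.0894.

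**Figure D5:**
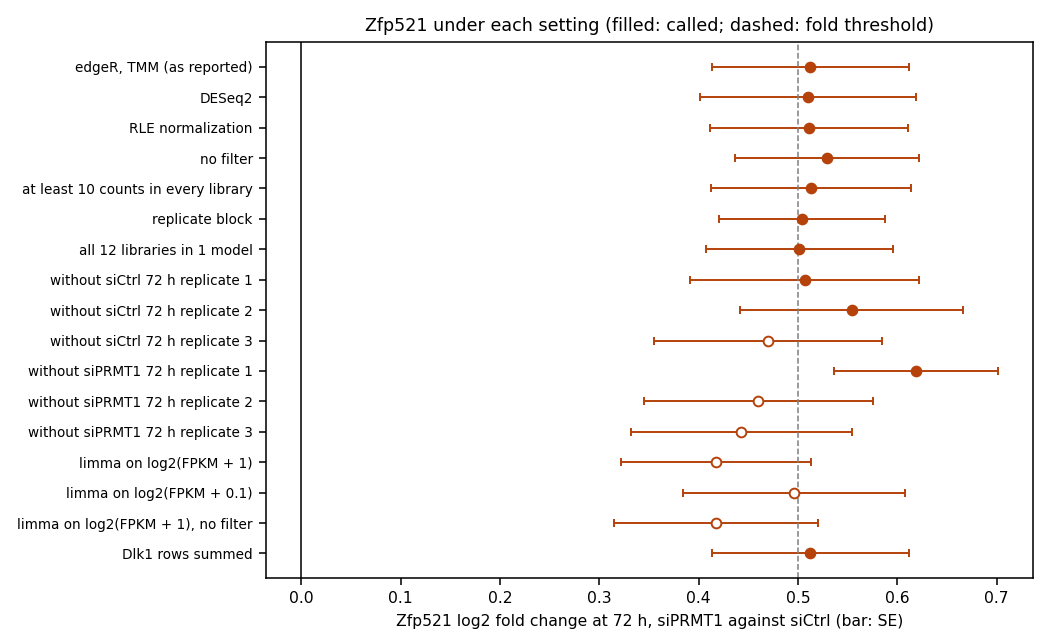
Log2 fold change of Zfp521 at 72 h, siPRMT1 against siCtrl (x axis, bars for the SE), under each setting of the analysis (y axis), with filled points where the gene was called and a dashed line at the fold threshold. All values lie above 0, from 0.42 to 0.62, and straddle the threshold.

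The course of Zfp521 over time differed between the siRNAs. It fell 0.37-fold in siCtrl (95% interval 0.32 to 0.43, adjusted p = 6.7e-07, edgeR) and 0.59-fold in siPRMT1 (0.52 to 0.68, adjusted p = 4.1e-06). The interaction of siRNA and time was 0.68 (SE 0.130, adjusted p = 0.0040), and Zfp521 was the 1 member called there, with 4.77% of 14612 genes called higher and 3.47% lower. Fitted to FPKM with limma the same test called 339 genes higher and 533 lower, against 697 and 507 here. Zfp521 was called in all 12 fits that left out 1 library, at 0.62 to 0.79, and in the limma fits at 0.51 to 0.59. The siCtrl libraries at 72 h enter the knockdown, the time course and the interaction alike, so these are not independent results. The other 9 members had interaction values from -0.62 (Gata3) to 0.30 (Gata2) and none was called. Dlk1 stood at 0.12, and its alternate-scaffold copy at 0.43 (SE 0.156, adjusted p = 0.0837, edgeR), also not called. The median of the 10 members was 0.12 beside 0.02 over all genes.

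Markers of cell state moved with siRNA on the same day. The summed level of the 8 fibroblast markers was 1885 to 2062 FPKM in siCtrl and 2414 to 2503 FPKM in siPRMT1 at 72 h, and 3675 to 3849 against 3438 to 3602 FPKM at 24 h. The list was mixed at 24 h. Vim averaged 1189 FPKM in siCtrl and 963 FPKM in siPRMT1, while Fn1, Pdgfrb and Thy1 averaged higher with siPRMT1. The 8 adipocyte markers summed to 2803 to 3016 FPKM in siCtrl and 2179 to 2354 FPKM in siPRMT1 at 72 h, and they were lower with siPRMT1 at 24 h as well, at 118 to 133 against 157 to 164 FPKM. The epithelial list was 34.3 to 39.9 FPKM in siCtrl and 15.4 to 17.4 FPKM in siPRMT1 at 72 h, and 4.21 to 6.03 against 6.35 to 6.86 FPKM at 24 h, the opposite order, with Cldn4 listed at 0 in both groups at 72 h and Epcam near 0. Their part in the Zfp521 result was not tested.

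The zinc finger paralog Zfp423, a determinant of preadipocytes that ZFP521 opposes, and the EBF factors gave a different picture at 72 h. Of 4 tested genes of this list 0 were called with knockdown on either day. Zfp423 was 7.34 ± 0.63 FPKM in siCtrl and 6.88 ± 1.17 FPKM in siPRMT1 at 72 h (log2 -0.10, SE 0.110), Ebf2 was 2.12 ± 0.33 and 2.12 ± 0.18 FPKM, and Ebf3 was 3.56 ± 0.23 and 3.75 ± 0.23 FPKM. Over time in siCtrl Zfp423 and Ebf2 rose by 1.52 and 0.99, the reverse of Zfp521, while Ebf3 fell by 1.43, nearly the same as Zfp521. Ebf1, named here after its values were seen, was 14.8 ± 1.61 FPKM in siCtrl and 15.3 ± 0.30 FPKM in siPRMT1 at 72 h. Over time Ebf1 was also called lower in siCtrl, at -0.52 (adjusted p = 0.0015, edgeR), but not in siPRMT1 (-0.21).

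Preadipocyte and adipocyte genes outside the set were also called with knockdown. Of 14 tested other preadipocyte genes, 2 rose and 1 fell at 72 h, with a median of 0.33 beside 0.01 over all genes. Among all genes, 2.84% were called higher and 3.80% lower. The progenitor surface genes Ly6a (Sca-1) and Pdgfra rose, by 0.96 and 0.60 (adjusted p = 2.0e-05 for each, edgeR), and the basement membrane collagen Col15a1 fell by 0.79. For the interaction, 6 of the 14 were called higher, against 4.77% of all genes. They were led by Pdgfra (0.86), Ly6a (1.2) and Col3a1 (0.56), and the median of the 14 was 0.44. At 24 h 0 of the 14 were called and their median was -0.15. Ly6a and Pdgfra share with Zfp521 a fall over time in siCtrl, with log2 changes of -4.0 and -2.0. Over time in siCtrl 11 of the 14 fell and 1 rose, with a median of -1.04, while 16 of 19 adipocyte genes rose and 1 fell. Among all genes, 22.7% were called higher and 20.4% lower over that interval. Of those 19 adipocyte genes, 10 fell and 0 rose with knockdown at 72 h, with a median of -0.54. They were led by the fatty acid desaturase Scd1 (-1.11), the glycerol-phosphate enzyme Gpd1 (-1.08) and the adipokine Cfd (-1.01). At 24 h 3 of 16 were lower, the drivers Pparg (-0.52) and Cebpa (-0.88) and the lipid droplet gene Cidec (-0.90), against 1.61% of all genes.

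Some close relatives of the members were called with knockdown. The shares over all genes were 1.95% higher and 1.61% lower at 24 h, and 2.84% and 3.80% at 72 h. Klf4, an early factor of adipogenesis, was higher at 24 h (0.77, adjusted p = 0.0030, edgeR) among 13 tested KLF and CtBP genes, all 13 with a value above 0 and a median of 0.15. At 72 h Klf15 was lower (-1.27). Sox4 and Sox11 were higher at 24 h (0.55 and 0.88), 2 of the 4 tested SOX factors, and 0 were called at 72 h. Sox11 was low, at 0.25 FPKM in siCtrl and 0.49 FPKM in siPRMT1 at 24 h. In the Notch list the called genes were Dlk2, the paralog of Dlk1, at 24 h (0.76, adjusted p = 0.0455), and Notch3 (0.54) and Lfng (-0.60) at 72 h. Bhlhe40, a repressor of the same bHLH class as HES1, was lower at 72 h (-0.84), the 1 gene called among 13 HES corepressors and bHLH repressors. The GATA cofactor list and the NR2F list had 0 called genes with knockdown on either day. The Groucho corepressor Tle4 (0.67), the dominant-negative HLH protein Id4 (0.79) and the GATA cofactor Zfpm2 (0.64) were called higher for the interaction, as Zfp521 was. Over time in siCtrl, 4 of the 13 HES-related genes rose and 6 fell, among them Bhlhe40 (1.46), Tle2 (-2.05) and Id2 (-1.69), and in siPRMT1 3 rose and 6 fell. The shares over all genes were 22.7% higher and 20.4% lower in siCtrl, and 19.0% and 17.4% in siPRMT1.

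The genes most like each called member were found by the r of log2 CPM over 12 libraries, among 12467 genes. Zfp521 was most like Rassf2 (0.996), a RAS association domain gene, and Gas1 (0.992), a growth-arrest protein of the cell surface. Rassf2 averaged 2.48 FPKM in siCtrl and 3.80 FPKM in siPRMT1 at 72 h and was called (0.62), while Gas1 averaged 64.2 and 90.3 FPKM and was under the fold threshold (0.49). Dlk1 was nearest to the DNA polymerase α subunit gene Pola2 (0.994) and the matrix gene Efemp2 (0.992). Klf3 was nearest to Ttc21b and Enah (0.996 each), Sox9 to Cacnb1 (0.990) and Thy1 (0.988), and Nr2f2 to Zfp365 (0.991) and the growth factor gene Fgf7 (0.989). Fgf7 was higher with knockdown at 72 h (0.58). On the rising side, Klf2 was nearest to Hdac5 and Comtd1 (0.991 each), Gata6 to Mto1 (0.993) and Car3 (0.990), and Gata3, at its low counts, to Nmt1 (0.924) and Tmem214 (0.923). These values are descriptions over libraries that share the day.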

How the data were processed

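mRNA libraries of 12 samples were analysed. Per the study's methods and the submitters' processing notes, the authors used cutadapt 1.11 for trimming and HISAT2 2.1.0 for alignment to mouse reference transcripts; the notes also name RSEM 1.2.6 and mm10. The counter and strand setting are not given in the sources used here, and without strand, reads of a gene and its antisense partner cannot be told apart: Klf3 shares 269 exon bases with Gm38457 and Gata6 shares 58 with 1010001N08Rik. The deposited counts are whole numbers per gene, without normalization. The deposited FPKM were made by the authors and recomputed here from counts, listed length and total counts to within 0.005.

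Members and lists were chosen with earlier results of these data known. Counts were tested with edgeR 4.0.16 (R 4.3.3; TMM, filterByExpr, quasi-likelihood F test, 1 fit per comparison, Benjamini-Hochberg adjustment over all genes tested), with the SE taken as the size of the log2 change over the root of F. The interaction used all 12 libraries. The script was tested on simulated data. Named beside the members are, per list and comparison, up to 3 called genes with the smallest p, and the 2 genes most like each called member. Alternatives were DESeq2 1.42.0, RLE scaling, other filters, a replicate block, all libraries in 1 model, no fold threshold, leaving out each library, and limma 3.58.1 on log2(FPKM + 1) or log2(FPKM + 0.1) over genes of at least 1 FPKM or unfiltered. Two-sided exact permutation tests of 3 against 3 libraries cannot go below p = 0.1. Intervals cover the spread between libraries, and low counts, as for Gata3, widen them.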

Additional observations from a re-analysis of the deposited data

Results flagged for a closer look

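The difference between siPRMT1 and siCtrl cells itself differed between 24 h and 72 h for 1 of the regulators. This was also so for 12 of the listed genes named beside them, at most 3 per list. The test was the interaction term over all 12 libraries (edgeR, adjusted p below 0.05 with a log2 value larger than 0.5 in size). Of 14612 genes, 4.77% were called higher and 3.47% lower. Cd24a (0.67), Vim (0.65) and Itgb1 (0.51) of the preadipocyte list were also called, beyond the 3 named. For Zfp521 the interaction was 0.68, and the difference went from -0.15 at 24 h to 0.51 at 72 h. Higher values at 72 h than at 24 h were also given by Zfpm2 (0.64), Tle4 (0.67), Id4 (0.79), Pdgfra (0.86), Ly6a (1.2) and Col3a1 (0.56). The interaction was negative for Klf4 (-0.58), Klf15 (-1.34), Sox11 (-1.27), Bhlhe40 (-0.84), Scd1 (-0.82) and Gpd1 (-1.40). Klf15 averaged 0.047 FPKM in siCtrl and 0.06 FPKM in siPRMT1 at 24 h, too low to be tested with knockdown on that day. Sox11 averaged at most 0.49 FPKM in any group, and Gpd1 0.52 and 0.67 FPKM at 24 h. At 72 h the summed fibroblast markers were higher and the summed adipocyte markers lower with siPRMT1. At 24 h both sums were lower, though the fibroblast markers Fn1, Pdgfrb and Thy1 averaged higher. The part of these markers in the interaction values was not tested.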

How the results depend on the processing

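The count of regulators called with knockdown at 72 h was 0 to 1 over the fits that left out 1 library each, and it was 0 with limma on log2(FPKM + 1), on log2(FPKM + 0.1) and on log2(FPKM + 1) without a filter. Zfp521 is the gene concerned: its value of 0.51 lies at the fold threshold. With the other 4 comparisons, each alternative left the count of members called within 1.5 times. Changes of sign occurred in values near 0 that were not called. At 24 h, Gata6 was 0.014, 0.017 and 0.014 with those limma fits. At 72 h, Gata2 was 0.0053 without a filter, Hes1 was -0.0042 with all libraries in 1 model, and Dlk1 was 0.041 with both rows summed, an alternative chosen after seeing the data. For the interaction, Klf2 was -0.014, -0.040 and -0.014 with the limma fits. Over the fits without 1 library, values at 24 h ran from -0.034 to 0.30 for Gata3, -0.11 to 0.0084 for Gata6, -0.12 to 0.19 for Klf2 and -0.048 to 0.10 for Klf3. At 72 h they ran from -0.15 to 0.066 for Dlk1, -0.094 to 0.077 for Gata2, -0.0087 to 0.056 for Gata6 and -0.059 to 0.049 for Hes1. The interaction ran from -0.056 to 0.26 for Dlk1, -0.13 to 0.20 for Klf2 and -0.011 to 0.14 for Sox9. The cause was not tested. Over time in siCtrl, Gata2 was called without a filter (-0.51) and with all libraries in 1 model (-0.50), and Gata3 lost its call with limma without a filter (0.36).

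Over all genes, 487 were called at 24 h, 1040 without the fold threshold, and 246 (166 higher, 80 lower) and 153 (103 higher, 50 lower) with limma on log2(FPKM + 1) with and without a filter. Leaving out siCtrl replicate 2 or 3 at 24 h gave 185 and 873 calls, and leaving out siPRMT1 replicate 1, 2 or 3 gave 179, 177 and 123. At 72 h, 933 were called, 2313 without the fold threshold, and 388, 569 and 342 with the limma fits. For the interaction, 1204 were called, 1907 without siCtrl replicate 3 at 24 h and 706 with unfiltered limma. Over time, siCtrl had 5969 calls and 3964 with limma on log2(FPKM + 1), and siPRMT1 had 5186 calls, 9014 without the fold threshold and 3144 and 3432 with limma on log2(FPKM + 1) with and without a filter.

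Replicate numbers are shared between groups, but nothing says that they mark a shared culture or day, and the deviations of same-numbered libraries correlated at -0.17 to 0.22. With the replicate number as a block, 0, 1, 1, 8 and 7 members were called at 24 h, at 72 h, for the interaction and over time in siCtrl and siPRMT1, as without it. Zfp521 at 72 h was 0.50 (SE 0.0834, adjusted p = 8.9e-04, edgeR) and Nr2f2 was 0.23 (adjusted p = 0.0354) in the blocked fit.

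Counts limit Gata3 most, with 19 to 70 per library.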
